A study of Drosophila melanogaster with 12 samples.

Results

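The genes described here are 76 long noncoding RNAs of the *Drosophila melanogaster* ovary, measured in whole ovary lysate (input) and in pooled polysome gradient fractions. They are the genes whose symbol starts with lncRNA: (68 genes) or asRNA: (8 genes, antisense RNAs) and whose mean over the 6 input libraries was 2 CPM or more (CPM, a count as a share of the library total). The files held 1979 genes with such symbols among 17023 identifiers, and 1048 of these had 0 counts in all 12 libraries. The cutoff fell between *CR43977* (2.01 CPM) and *CR43256* (2.01 CPM) on the inside and *CR45523* (1.93 CPM) and *CR44966* (1.92 CPM) on the outside. The genes were thus chosen by their measured input level, so polysome and input are set side by side below as a description, and tests are given for differences between genotypes. The prefixes are left out of the names from here on.

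The study compared 3 genotypes, all driven by NosGAL4, a driver active in the germline, so that the transgenes were driven in germ cells and not in the somatic cells of the ovary. The *aramis* RNAi ovaries (UAS-Dicer2 with NosGAL4) have lowered *aramis*, an RNA helicase gene of ribosome biogenesis, and the *bam* RNAi ovaries (also UAS-Dicer2 with NosGAL4) have lowered *bam*, a differentiation factor, and are enriched for stem cell daughters. The UAS-*tkv* ovaries express a BMP receptor, are enriched for germline stem cells and have no UAS-Dicer2 in their labelled genotype. In a comparison with UAS-*tkv*, the receptor transgene, UAS-Dicer2 and the RNAi therefore cannot be told apart. Females were dissected 1 to 3 days after eclosion, and each genotype gave 2 polysome libraries, extracted with acid phenol-chloroform, and 2 input libraries from the 20% of lysate set aside, extracted with TRIzol, so that extraction and polysome association cannot be told apart. All libraries were poly(A)-selected, and RNAs without a poly(A) tail are under-represented in both fractions.

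Long noncoding RNAs are transcripts, usually capped and spliced like mRNAs, that carry no long conserved reading frame. Some act in the nucleus, such as *Hsromega*, which gathers hnRNP proteins in omega speckles, while others are antisense to a coding gene or are the primary transcripts from which Drosha cuts miRNA hairpins. In a polysome gradient, RNAs bound by several ribosomes sediment with mRNAs under translation, so the polysome level relative to input shows how much of an RNA travels in these fractions, and heavy particles without ribosomes can sediment there too.

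Library totals ran from 3131667 counts (*aramis* RNAi polysome replicate 2) to 15039925 counts (*bam* RNAi polysome replicate 2), and the 76 RNAs together took from 0.0388% (*bam* RNAi polysome replicate 1) to 0.195% (*bam* RNAi input replicate 1) of them. The *bam* RNAi polysome replicate 1 library stood apart, with 25 of the 76 at 0 counts. Ribosomal protein genes took 33.0% of its counts, against 9.32% in *bam* RNAi polysome replicate 2. Their share was 5.05% and 8.90% in *aramis* RNAi polysomes, 21.0% and 21.5% in UAS-*tkv* polysomes and from 14.3% to 22.5% in inputs. The part of this difference in the polysome levels of the 76 was not tested. Replicates correlated less well over the 76 RNAs in polysomes (Pearson's r of log2 CPM 0.897 in *aramis* RNAi, 0.588 in *bam* RNAi and 0.525 in UAS-*tkv*) than in inputs (0.946, 0.922 and 0.888 in that order of genotypes), as a description across genes. The targeted genes are given in TMM-scaled CPM, a scaling that balances composition between libraries. *aramis* (*ais*) was at 8.50 and 11.2 CPM in *aramis* RNAi input, against 28.7 and 20.7 in *bam* RNAi and 34.2 and 29.5 in UAS-*tkv*. *bam* was at 3.55 and 2.48 CPM in *bam* RNAi input, 0.590 and 0.702 in *aramis* RNAi and 8.21 and 8.23 in UAS-*tkv*. Some lists of cell type markers moved with genotype, and of the 8 germline markers listed, 6 were matched by symbol. Sums over markers are CPM by library totals, without TMM. In input the summed level of 6 germline markers was 102 to 109 CPM in *aramis* RNAi, 665 to 1136 in *bam* RNAi and 853 to 1135 in UAS-*tkv*, that of 6 hemocyte markers was 3773 to 3866, 1526 to 1924 and 672 to 1384 CPM, and that of 5 sheath muscle markers 29800 to 30060, 13010 to 19700 and 6307 to 14760 CPM in the same order. Other lists had other orders: 5 follicle cell markers summed to 813 to 838, 714 to 1160 and 615 to 686 CPM. For 5 fat body markers the sums were 652 to 768, 311 to 670 and 799 to 1237 CPM in that order of genotypes. In bulk ovaries, fewer cells of a type and less RNA per cell cannot be told apart.

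The 76 RNAs were mostly of low level. Their mean input CPM ran from 2.01 to 487 with a median of 5.23, 26 reached 10 CPM, and 37 lay between 2 and 5 CPM. *CR42862*, *Hsromega*, *CR40469*, *CR43264* and *CR31781* together held 60.4% of the summed mean input level. Per exon length, the mean input level had a median of 9.63 TPM (counts corrected for exon length and library) against 29.3 TPM for the protein-coding genes of 2 CPM or more. On this scale *CR40469* ranked first at 1128 TPM and *CR43264* next at 562 TPM, while *Hsromega*, second by CPM, ranked 31st at 11.7 TPM. Exon length, with the exons of all transcripts of a gene merged, had a median of 1035 bases (2138 for the coding genes). It ran from 214 bases in *CR40469* to 21710 in *Hsromega*, and 33 RNAs had a single exon in this merged form. The TPM of *Hsromega*, which has 7 annotated transcripts, rests on that merged length. The X chromosome held 23 of the 76 (30.3%) and 17.2% of the coding genes of 2 CPM or more. On the other strand 18 had exons overlapping those of another gene, 9 shared exon bases only with a gene on the same strand, 15 lay within or over another gene without exon overlap, and 34 overlapped no other gene. The strand setting of the counting was not given in the sources used here, so reads of the first 18 and of their antisense partners cannot be told apart, and those of the next 9 are uncertain. On the same strand 11 shared exon bases with another gene in all, since 2 of the 18, *iab8* and *CR45600*, did so as well.

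Of the 76, 5 have a given name: *Hsromega*, *mimi*, *bsAS* (antisense to *blistered*, the gene of a wing transcription factor), *marge* and *iab8* (a transcript of the bithorax complex). *bsAS* (2R, 24351477 to 24369689) was at 1.01 and 4.62 CPM in *aramis* RNAi polysomes against 3.90 and 4.74 in input, at 0 and 4.43 against 1.90 and 2.80 in *bam* RNAi, and at 1.77 and 0 against 0.935 and 1.94 in UAS-*tkv* (TMM-scaled CPM, a scaling that balances composition between libraries), with wide overlap. The dosage compensation RNAs *roX1* and *roX2*, which coat the male X chromosome, were below the cutoff at 0.409 and 0.390 CPM, as was *let7C*, the transcript of the let-7 miRNA cluster, at 0.959 CPM.

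**Figure D1:**
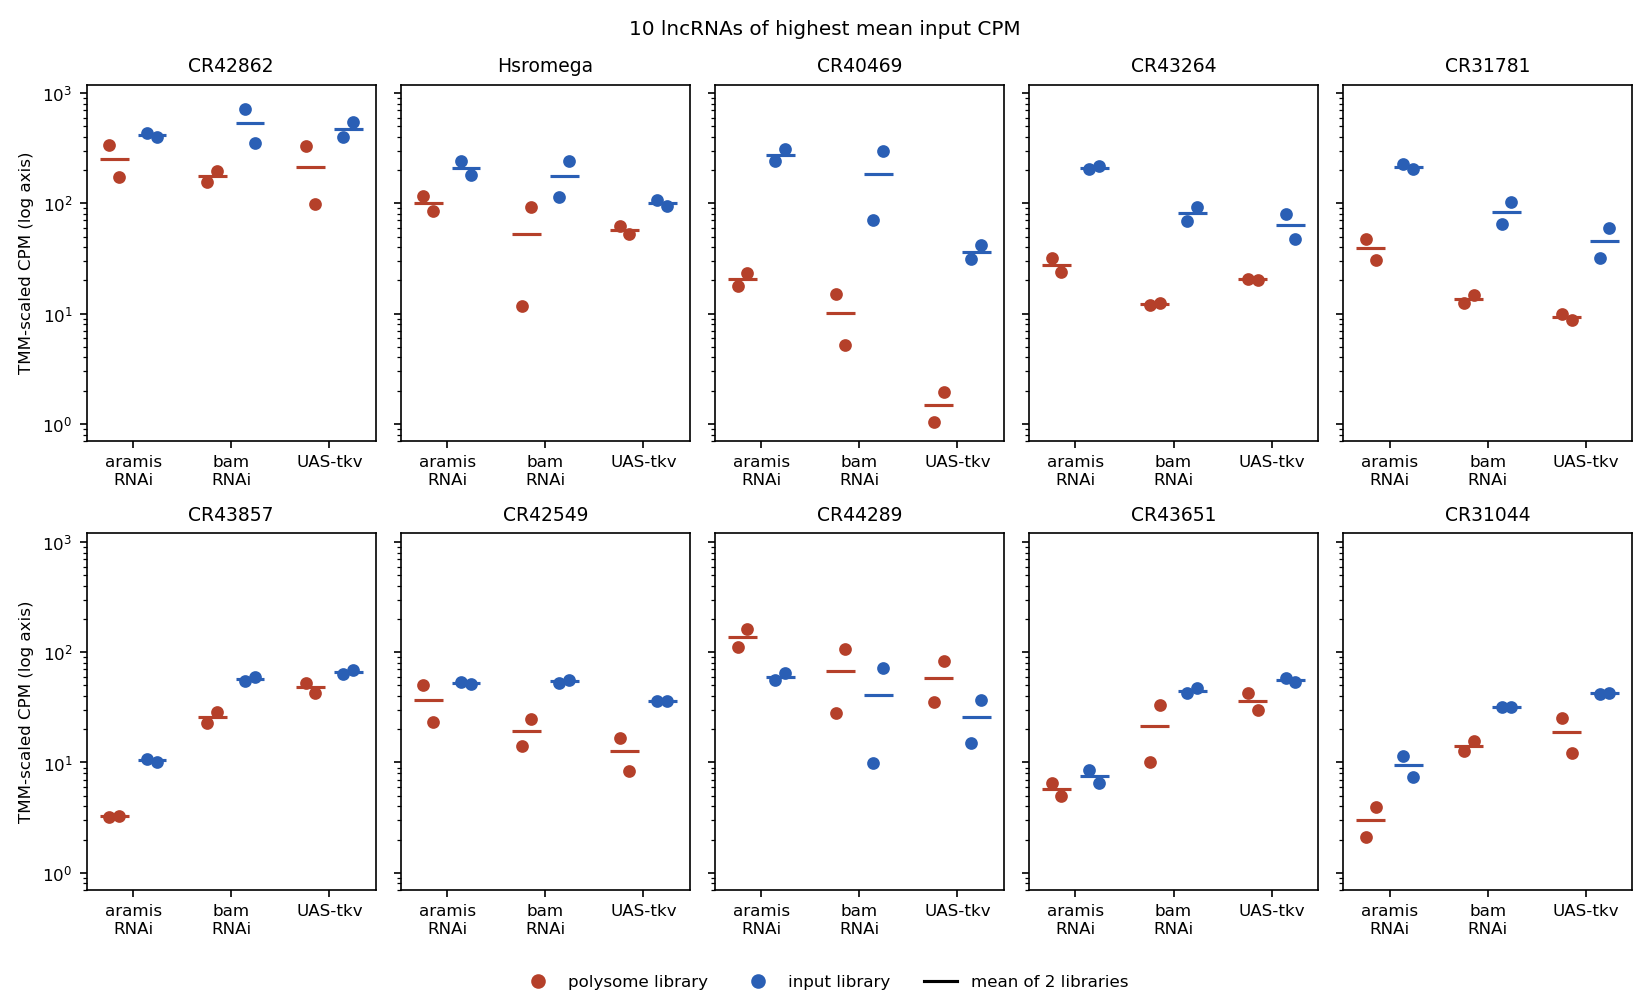
Level of the 10 lncRNAs of highest mean input CPM in every library, on a log axis, in TMM-scaled CPM. Points are single libraries and bars the mean of 2. Among the input means, those of *CR40469*, *CR43264* and *CR31781* are highest in *aramis* RNAi, and those of *CR43857*, *CR43651* and *CR31044* are lowest there. *CR44289* has polysome means above its input means.

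The 10 most abundant RNAs differed in how their levels were spread over genotypes and fractions. All values per library that follow are TMM-scaled CPM. *CR42862* (chromosome 3L, 224106 to 230964, dm6), the most abundant by CPM, shares 246 exon bases with *CG33229* on its own strand. It was at 337 and 172 CPM in *aramis* RNAi polysomes against 434 and 401 in input, at 156 and 197 against 724 and 352 in *bam* RNAi, and at 330 and 99.1 against 400 and 546 in UAS-*tkv*. Every polysome library was thus below both input libraries of its genotype, and no genotype difference was called (adjusted p of 0.837 in input and 0.752 in polysomes, *aramis* RNAi against UAS-*tkv*, edgeR).

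*Hsromega* (3R, 21296127 to 21317836) was at 117 and 86.2 CPM in *aramis* RNAi polysomes against 242 and 180 in input, at 11.7 and 93.2 against 114 and 243 in *bam* RNAi, and at 62.0 and 52.5 against 107 and 94.6 in UAS-*tkv*. Its polysome libraries were lower than the input libraries in each genotype, and the low value of 11.7 CPM came from *bam* RNAi polysome replicate 1. Between genotypes the input difference was 1.07 ± 0.66 (log2, SE) for *aramis* RNAi against UAS-*tkv*, with an adjusted p of 0.296. *CR42549* (3R, 9548104 to 9551806), which shares 97 exon bases with *mura*, was at 50.3 and 23.1 CPM in *aramis* RNAi polysomes, 14.0 and 24.7 in *bam* RNAi and 16.9 and 8.35 in UAS-*tkv* polysomes, and in inputs at 53.7 and 51.9, 53.0 and 56.6, and 36.5 and 35.8 CPM.

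In contrast, *CR44289* (3R, 27535831 to 27537903), a single-exon RNA 1897 bases from its nearest coding gene, was the one of the 10 with higher mean levels in polysomes than in input in every genotype. It was at 113 and 164 CPM in *aramis* RNAi polysomes against 55.5 and 64.4 in input, at 28.0 and 108 against 9.96 and 71.5 in *bam* RNAi, and at 35.4 and 82.6 against 15.1 and 36.8 in UAS-*tkv*. The fractions did not overlap in *aramis* RNAi and did in the other genotypes, where the libraries of each group differed widely.

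The comparison of *aramis* RNAi and UAS-*tkv* inputs asks which of these RNAs differ in level between these genotypes. They differ in *aramis* RNAi, in UAS-Dicer2 and in the *tkv* transgene. Of the 76, 3 were higher (3.95%, against 10.1% of the 9745 genes tested) and 5 lower (6.58%, against 8.73%) at a Benjamini-Hochberg adjusted p under 0.05 by edgeR, and the shares called were below the background in both directions. The median log2 difference was -0.31 for the 76 and -0.04 for all genes tested. The standard errors were larger too, with a median of 1.05 against 0.43.

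The 3 RNAs that rose were abundant. *CR40469* (X, 122493 to 122706) was at 244 and 310 CPM in *aramis* RNAi input, 70.6 and 298 in *bam* RNAi and 31.1 and 42.0 in UAS-*tkv*. Both *aramis* RNAi libraries were above both UAS-*tkv* libraries, while the *bam* RNAi libraries were far apart, with 1 of them inside the *aramis* RNAi range. It rose by 2.92 ± 0.63 (log2, SE; adjusted p = 0.00999) against UAS-*tkv*, a 7.59-fold difference, and the difference from *bam* RNAi was 0.59 ± 0.59 (adjusted p = 0.592).

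*CR31781* (2L, 16869346 to 16878300) was at 227 and 206 CPM in *aramis* RNAi input, 65.4 and 103 in *bam* RNAi and 31.8 and 59.7 in UAS-*tkv*, in 3 groups that did not overlap. It rose 4.73-fold against UAS-*tkv* (log2 2.24 ± 0.37, adjusted p = 0.00349). *CR43264* (X, 5831898 to 5832215), which lies inside *CG15765* without exon overlap, was at 206 and 217 CPM in *aramis* RNAi, 69.6 and 92.6 in *bam* RNAi and 80.3 and 47.3 in UAS-*tkv*. Its *aramis* RNAi libraries were above all 4 others, and it rose 3.31-fold against UAS-*tkv* (log2 1.73 ± 0.31, adjusted p = 0.00449) and 2.61-fold against *bam* RNAi (1.38 ± 0.30, adjusted p = 0.0352). In the same comparison with UAS-*tkv*, 6 of 6 hemocyte markers (median log2 2.47) and 4 of 5 sheath muscle markers (median 2.05) were higher. The part of these cells in the rise of the 3 RNAs was not tested.

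**Figure D2:**
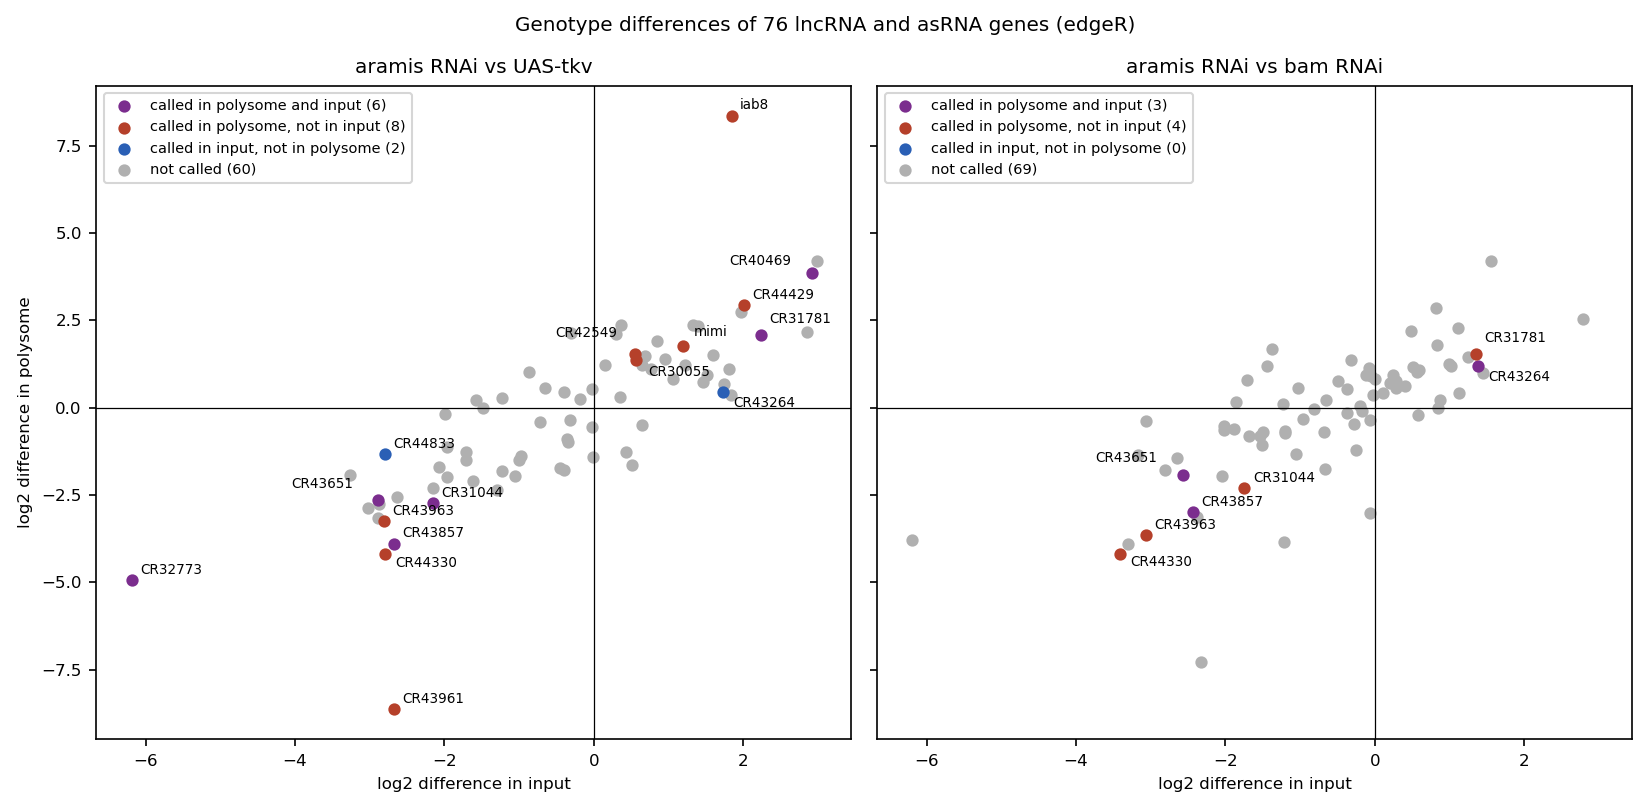
Log2 difference of each of the 76 RNAs in input (x axis) and polysomes (y axis) for *aramis* RNAi against UAS-*tkv* (left) and against *bam* RNAi (right), from the edgeR fit, with RNAs called at an adjusted p under 0.05 coloured by fraction. Against UAS-*tkv*, 6 RNAs were called in both fractions, 8 in polysomes and not in input and 2 in input and not in polysomes; the positions of *iab8* and *CR43961* rest on a group with 0 counts.

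The 5 RNAs that fell included 3 miRNA precursors. *CR43857* (2L, 7423820 to 7425932), which contains the mir-275 hairpin gene, was at 10.7 and 10.2 CPM in *aramis* RNAi input, 54.5 and 59.1 in *bam* RNAi and 64.1 and 69.6 in UAS-*tkv*. It was lower in *aramis* RNAi than in any other input, 6.38-fold against UAS-*tkv* (log2 -2.67 ± 0.29, adjusted p = 0.000905) and 5.42-fold against *bam* RNAi (-2.44 ± 0.29, adjusted p = 0.00338). *CR43651* (2R, 9552844 to 9553940) contains mir-14, the gene of a miRNA that restrains cell death. It was at 8.62 and 6.49 CPM in *aramis* RNAi input, 42.8 and 47.2 in *bam* RNAi and 58.6 and 53.4 in UAS-*tkv*, and fell 7.38-fold against UAS-*tkv* (-2.88 ± 0.50, adjusted p = 0.00418) and 5.92-fold against *bam* RNAi (-2.57 ± 0.50, adjusted p = 0.0202). *CR31044* (3R, 29214562 to 29219667) contains mir-279 and mir-996, of which mir-279 limits JAK/STAT signalling in follicle cells. It was at 11.6 and 7.37 CPM in *aramis* RNAi, 32.1 and 31.7 in *bam* RNAi and 42.2 and 42.6 in UAS-*tkv*, and fell 4.46-fold against UAS-*tkv* (-2.16 ± 0.46, adjusted p = 0.00971), while the difference from *bam* RNAi was -1.75 ± 0.46 (adjusted p = 0.0567).

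The other RNAs that fell were of low level. *CR32773* (X, 4387676 to 4611385), whose introns span several coding genes including *bi*, was at 0.118 and 0 CPM in *aramis* RNAi input, 5.90 and 5.92 in *bam* RNAi and 6.23 and 5.49 in UAS-*tkv*. It had 1 count in *aramis* RNAi against 94 in UAS-*tkv*, a ratio of 84.2-fold lower with an exact 95% counting interval of 14.8 to 3360 (adjusted p = 0.0298). Without molecular identifiers, an interval of this kind measures counting error alone. *CR44833* (X, 4956646 to 5063868) was at 1.30 and 1.404 CPM in *aramis* RNAi, 4.70 and 6.32 in *bam* RNAi and 9.45 and 9.53 in UAS-*tkv* (6.97-fold lower than in UAS-*tkv*, log2 -2.80 ± 0.78, adjusted p = 0.0273). It overlaps 25 exon bases of *ovo*, a germline gene on the other strand, which was lower as well (log2 -2.31, adjusted p = 0.0158). All 6 germline markers measured fell in the same comparison (median log2 -2.94), and their part in the fall of the 5 RNAs was not tested.

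Calls with 2 libraries a group were sensitive to single libraries. With each of the 4 libraries of the pair left out in turn, *CR43264*, *CR43651* and *CR43857* stayed called every time against UAS-*tkv*. *CR31781* lost its call without UAS-*tkv* input replicate 1 (adjusted p = 0.0623), *CR40469* and *CR31044* lost theirs without that library or without either *aramis* RNAi input library (up to 0.123 and 0.0977), and *CR32773* and *CR44833* without any of the 4 (up to 0.181 and 0.2). With UAS-*tkv* input replicate 1 left out 3 RNAs were called, and with either *aramis* RNAi input library left out 4, but 14 were called without either *bam* RNAi polysome library and 12 without either UAS-*tkv* polysome library, libraries that are in neither group of the comparison. The fit took a single spread per gene over all 6 groups, so libraries outside a comparison entered its p-values. Their part in these counts was not tested. When the fit held the input libraries of all 3 genotypes and no polysome library, 23 of the 76 were called, 7 higher and 16 lower.

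Against *bam* RNAi, which shares UAS-Dicer2, 1 RNA was higher in *aramis* RNAi input (1.32%, against 0.944% of all genes tested) and 2 were lower (2.63%, against 2.44%), shares near the background. These were *CR43264*, *CR43651* and *CR43857*, all given above. Each of the 3 lost its call without either *aramis* RNAi input library, *CR43264* and *CR43651* also without either *bam* RNAi input library, with adjusted p of up to 0.285, 0.219 and 0.106 for *CR43264*, *CR43651* and *CR43857*. The count of calls was 1 without either *bam* RNAi input library and 7 and 6 without *bam* RNAi polysome replicates 1 and 2. A fit of the input libraries alone, of all 3 genotypes, called 19. The median log2 difference of the 76 was -0.37, against -0.03 over all genes tested, with 26 above 0 and 50 below.

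Between *bam* RNAi and UAS-*tkv* inputs, 0 of the 76 were called by edgeR, against 0.236% of all genes tested. At an unadjusted p under 0.05, 3 were higher (3.95%, against 3.52%) and 1 lower (1.32%, against 2.28%), and DESeq2 called 1. The lowest p belonged to *CR40469* (log2 2.34 ± 0.62, adjusted p = 0.302), *CR31781* (0.88 ± 0.36, adjusted p = 0.809) and *mimi* (1.08 ± 0.44, adjusted p = 0.816), all of which missed the threshold. For *CR40469*, the *bam* RNAi libraries at 70.6 and 298 CPM were both above the UAS-*tkv* libraries at 31.1 and 42.0.

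In polysomes, *aramis* RNAi against UAS-*tkv* gave 7 of the 76 as higher (9.21%, against 17.2% of all genes tested) and 7 as lower (9.21%, against 13.6%), again below the background shares. *CR40469* was at 17.7 and 23.4 CPM in *aramis* RNAi polysomes, 15.1 and 5.23 in *bam* RNAi and 1.05 and 1.94 in UAS-*tkv*. It rose 14.5-fold against UAS-*tkv* (log2 3.86 ± 0.75, adjusted p = 0.00378), with both *aramis* RNAi libraries above the 4 others. *CR31781* was at 47.9 and 30.7 CPM in *aramis* RNAi, 12.4 and 14.8 in *bam* RNAi and 9.999 and 8.74 in UAS-*tkv*, and rose 4.21-fold against UAS-*tkv* (2.07 ± 0.38, adjusted p = 0.00282) and 2.89-fold against *bam* RNAi (1.53 ± 0.37, adjusted p = 0.0285). *mimi* (3R, 23983503 to 23985065), which contains mir-9381, was at 13.1 and 21.8 CPM in *aramis* RNAi, 16.7 and 9.49 in *bam* RNAi and 3.95 and 6.41 in UAS-*tkv*, and rose 3.37-fold against UAS-*tkv* (1.75 ± 0.46, adjusted p = 0.0154).

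*CR44429* (X, 15297312 to 15298217), antisense to *gce*, a juvenile hormone receptor gene, was at 7.54 and 3.96 CPM in *aramis* RNAi polysomes, 5.05 and 3.68 in *bam* RNAi and 1.05 and 0.389 in UAS-*tkv*. It rose 7.64-fold against UAS-*tkv* (2.93 ± 1.00, adjusted p = 0.0449). The exons overlap by 167 bases, and *gce* itself was higher in the same comparison (log2 2.70, adjusted p = 0.00577). *iab8* (3R, 16831116 to 16923231) was at 3.96 and 4.62 CPM in *aramis* RNAi polysomes, 0 and 2.24 in *bam* RNAi and 0 and 0 in UAS-*tkv*. With 65 counts in *aramis* RNAi and 0 in UAS-*tkv*, it was at least 23.9-fold higher (floor of 3 counts over the group, adjusted p = 0.0152). By library totals its input was 3.07 and 2.97 CPM in *aramis* RNAi, 1.65 and 2.58 in *bam* RNAi and 1.15 and 1.11 in UAS-*tkv*. It reached the cutoff of 2 CPM only with the *aramis* RNAi libraries, the group where it was called higher. It shares 1733 exon bases with *MSAmiP* on its strand, so its counts are uncertain. *CR42549* (log2 1.54, adjusted p = 0.0228) and *CR30055* (1.38, adjusted p = 0.0407) also rose. For *CR42549*, *mura*, which shares exon bases with it, was higher too (2.001, adjusted p = 0.00582).

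Among the RNAs that fell in polysomes, *CR43857* had the smallest standard error. It was at 3.19 and 3.30 CPM in *aramis* RNAi polysomes, 22.9 and 28.5 in *bam* RNAi and 53.0 and 43.1 in UAS-*tkv*, which is 14.8-fold lower than UAS-*tkv* (log2 -3.89 ± 0.32, adjusted p = 0.000133) and 7.96-fold lower than *bam* RNAi (-2.99 ± 0.32, adjusted p = 0.0013). *CR31044* was at 2.098 and 3.96 CPM in *aramis* RNAi polysomes, 12.6 and 15.5 in *bam* RNAi and 25.6 and 12.2 in UAS-*tkv* (-2.73 ± 0.50 against UAS-*tkv*, adjusted p = 0.0028). *CR43651* was at 6.45 and 4.95 CPM in *aramis* RNAi, 10.1 and 33.2 in *bam* RNAi and 42.5 and 29.9 in UAS-*tkv* (-2.64 ± 0.51 against UAS-*tkv*, adjusted p = 0.00349). The 3 precursors that fell in input thus fell in polysomes as well.

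The remaining 4 were near or at 0 in *aramis* RNAi polysomes. *CR43961* (X, 12067200 to 12070139), which lies within the *Ten-a* gene without exon overlap, had 0 counts in both *aramis* RNAi polysome libraries and was at 0 and 3.73 CPM in *bam* RNAi and 5.48 and 4.86 in UAS-*tkv*. It was at least 28.1-fold lower than in UAS-*tkv*, where it had 93 counts (adjusted p = 0.0137). *Ten-a* was higher in the same comparison (log2 2.34, adjusted p = 0.00418), in the opposite direction. *CR32773* was at 0.155 and 0 CPM in *aramis* RNAi polysomes, 0 and 3.20 in *bam* RNAi and 4.11 and 3.50 in UAS-*tkv*, a count ratio of 31.3-fold lower than UAS-*tkv* with a counting interval of 8.33 to 263 (adjusted p = 0.0422). *CR44330* (3R, 8089757 to 8090285) was at 0.388 and 0 CPM in *aramis* RNAi, 4.36 and 5.49 in *bam* RNAi and 2.097 and 7.97 in UAS-*tkv* (log2 -4.19 ± 1.21 against UAS-*tkv*, adjusted p = 0.0231). *CR43963* (X, 12717624 to 12730953), which shares 20 exon bases with *Smr*, was at 0.311 and 0 CPM in *aramis* RNAi, 2.29 and 3.31 in *bam* RNAi and 1.29 and 3.11 in UAS-*tkv* (-3.25 ± 1.06, adjusted p = 0.0379).

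With each of the 4 polysome libraries of the pair left out in turn, *CR31044*, *CR31781*, *CR40469*, *CR43651* and *CR43857* stayed called every time against UAS-*tkv*. *CR43961* lost its call without *aramis* RNAi polysome replicate 1 (adjusted p = 0.118), *iab8* without that library or UAS-*tkv* polysome replicate 1 (up to 0.0703), *CR42549* without it or UAS-*tkv* polysome replicate 2 (up to 0.292), and *mimi* without *aramis* RNAi polysome replicate 2 or UAS-*tkv* polysome replicate 1 (up to 0.093). *CR43963* (up to 0.119) and *CR44330* (up to 0.0889) lost theirs without either *aramis* RNAi library or UAS-*tkv* polysome replicate 2, and *CR30055*, *CR32773* and *CR44429* without any of the 4 (up to 0.213). The count of calls was 6 without *aramis* RNAi polysome replicate 1 and 9 without replicate 2, but 23 and 24 without *bam* RNAi polysome replicates 1 and 2, which are in neither group of the comparison. These libraries entered the spread of the fit as well, and their part in the counts was not tested. A fit of the polysome libraries alone, of all 3 genotypes, called 5 of the 76.

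Against *bam* RNAi polysomes, 2 RNAs were higher in *aramis* RNAi (2.63%, against 5.83% of all genes tested) and 5 lower (6.58%, against 6.87%). *CR43264* was at 31.7 and 23.8 CPM in *aramis* RNAi polysomes against 11.9 and 12.4 in *bam* RNAi, and rose 2.29-fold (log2 1.19 ± 0.31, adjusted p = 0.0357). The other RNA that rose was *CR31781*, and those that fell were *CR43857*, *CR44330* (-4.18 ± 1.21, adjusted p = 0.0457), *CR43963* (-3.64 ± 1.06, adjusted p = 0.0465), *CR31044* (-2.30 ± 0.50, adjusted p = 0.0213) and *CR43651* (-1.92 ± 0.50, adjusted p = 0.0345). *CR43857* stayed called without any 1 of the 4 libraries. The other 6 lost their calls without either *aramis* RNAi polysome library, with adjusted p of up to 0.236. *CR31781*, *CR43264*, *CR43963* and *CR44330* also lost theirs without *bam* RNAi polysome replicate 1, and *CR43651* without replicate 2, although 22 of the 76 were called without that library. A fit of the polysome libraries alone, of all 3 genotypes, called 1.

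Between *bam* RNAi and UAS-*tkv* polysomes, 0 of the 76 were called by edgeR, against 0.626% of all genes tested, and DESeq2 called 3. At an unadjusted p under 0.05, 4 were higher (5.26%, against 9.18%) and 4 lower (5.26%, against 5.03%). Without *bam* RNAi polysome replicate 2, 7 were called, all lower in *bam* RNAi, and without UAS-*tkv* polysome replicate 2, 1 was called. The lowest p belonged to *CR40469* (log2 2.79 ± 0.75, adjusted p = 0.134), *CR43857* (-0.90 ± 0.28, adjusted p = 0.19) and *CR32368* (-3.82 ± 1.20, adjusted p = 0.2), which missed the threshold. *CR32368* was at 0 and 4.59 CPM in *bam* RNAi polysomes against 9.19 and 63.7 in UAS-*tkv* polysomes, and the high value came from UAS-*tkv* replicate 2. By library totals, the summed level of 6 midgut markers was 6.71 and 52.8 CPM in those *bam* RNAi libraries and 0.26 and 213 CPM in those UAS-*tkv* libraries. Its part in the value of *CR32368* was not tested.

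**Figure D3:**
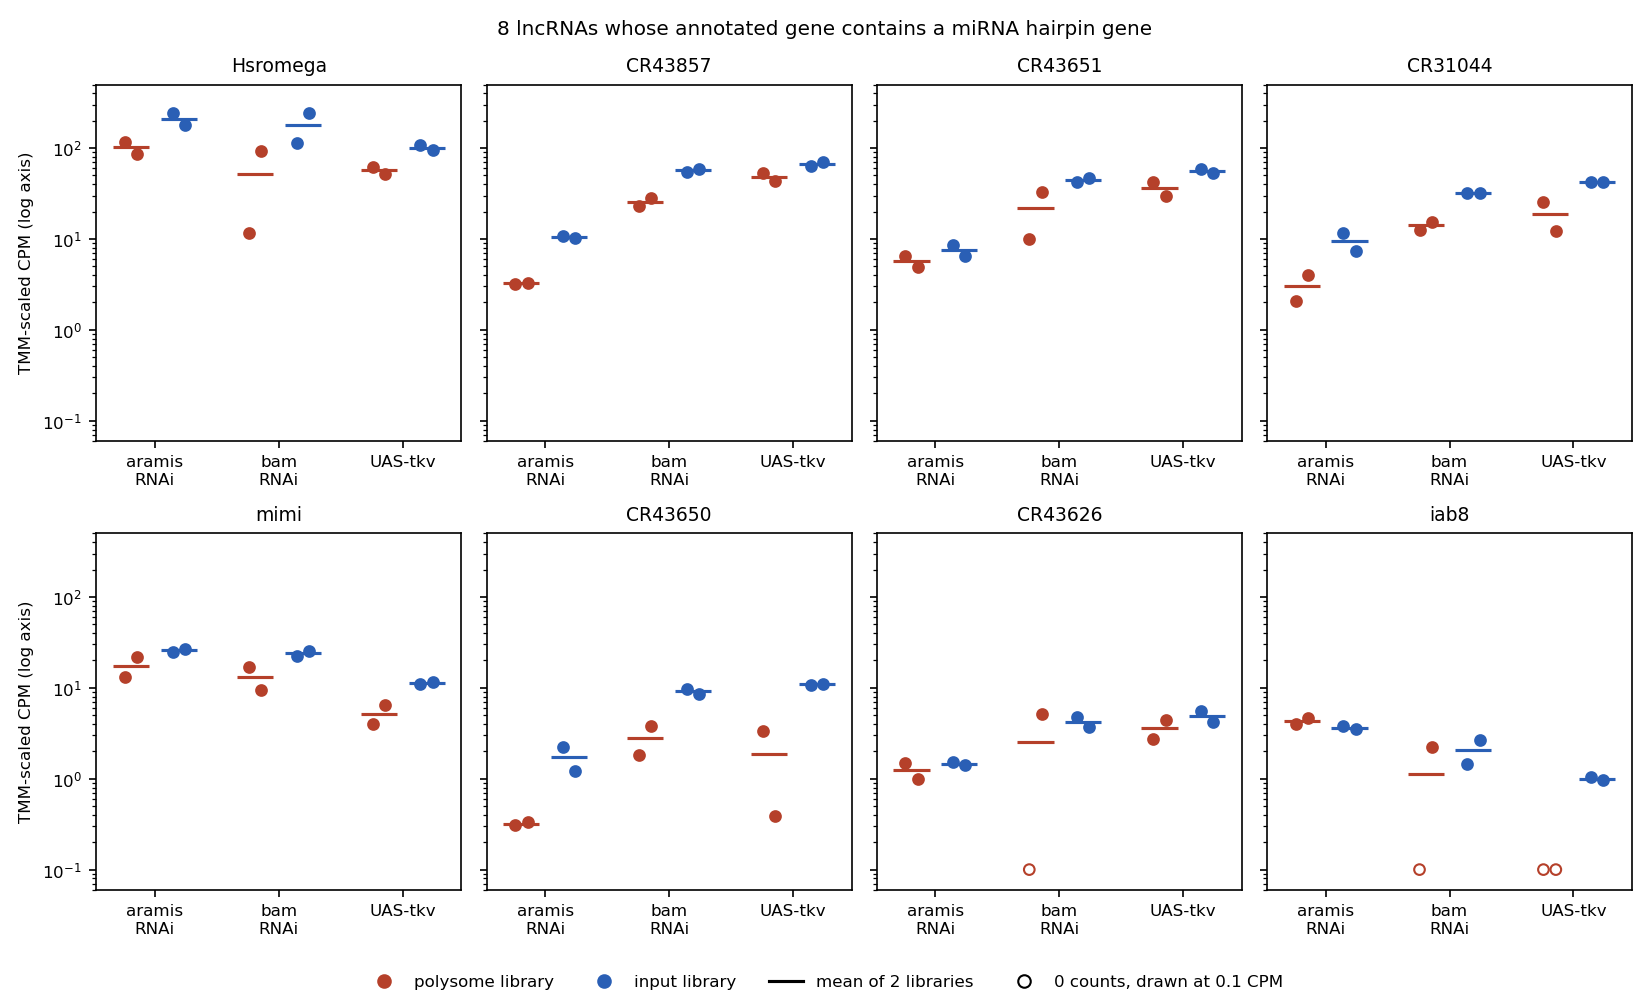
Level of the 8 lncRNAs whose annotated gene contains a miRNA hairpin gene on the same strand, in every library, in TMM-scaled CPM on a log axis, with bars at the mean of 2 libraries and open points for 0 counts. *CR43857*, *CR43651*, *CR31044*, *CR43650* and *CR43626* have *aramis* RNAi inputs below all other inputs, and *Hsromega*, *mimi* and *iab8* do not.

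In all, 8 of the 76 RNAs contain a miRNA hairpin gene, a group noticed after the values were seen and given as a description. In input, 5 of the 8 (62.5%) had a level in both *aramis* RNAi libraries below all 4 others, beside 24 of the other 68 RNAs (35.3%) and 29.8% of all 9745 genes tested. Beside *CR43857*, *CR43651* and *CR31044* these were *CR43650* (2R, 16829095 to 16839494), the transcript around mir-8, a growth-promoting miRNA of the miR-200 family, and *CR43626* (3L, 3249340 to 3254504), around mir-282. *CR43650* was at 2.24 and 1.23 CPM in *aramis* RNAi input, 9.71 and 8.56 in *bam* RNAi and 10.7 and 11.1 in UAS-*tkv* (log2 -2.63 ± 0.94 against UAS-*tkv*, adjusted p = 0.0746). *CR43626* was at 1.53 and 1.404 CPM in *aramis* RNAi, 4.76 and 3.68 in *bam* RNAi and 5.51 and 4.20 in UAS-*tkv* (-1.71 ± 1.30, adjusted p = 0.397). The counts are of poly(A)-selected transcript, so they do not measure the mature miRNAs.

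The other 3 did not have this order. *mimi* was at 24.9 and 26.9 CPM in *aramis* RNAi input, 22.6 and 25.2 in *bam* RNAi and 10.9 and 11.6 in UAS-*tkv* (1.20 ± 0.45 against UAS-*tkv*, adjusted p = 0.0843). *iab8* was at 3.78 and 3.51 CPM in *aramis* RNAi, 1.46 and 2.64 in *bam* RNAi and 1.04 and 0.969 in UAS-*tkv* (1.85 ± 1.36, adjusted p = 0.383). Over the 8 RNAs, log2 differences in input against UAS-*tkv* ran from -2.88 to 1.85 with a median of -1.94, beside -0.31 for the 76 and -0.04 for all genes tested. The polysome minus input difference was below 0 for 7 of the 8 in *aramis* RNAi, where it was 0.23 for *iab8*, and for 8 in *bam* RNAi and 8 in UAS-*tkv*, beside 42, 62 and 49 of the other 68 RNAs in the same order.

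Most of the 76 RNAs had a lower level in polysomes than in input. The median polysome minus input difference (log2, edgeR) was -0.41 in *aramis* RNAi, -1.02 in *bam* RNAi and -0.61 in UAS-*tkv*, beside 0.01, -0.11 and -0.00 for 8313 other genes of 2 CPM or more. It was below 0 for 49 of the 76 in *aramis* RNAi, 70 in *bam* RNAi and 57 in UAS-*tkv*. The medians moved with single libraries. The *bam* RNAi median was -0.61 without *bam* RNAi polysome replicate 1 and -2.78 without replicate 2, and the *aramis* RNAi median was -0.72 without *aramis* RNAi polysome replicate 1 and -0.21 without replicate 2. With library totals in place of TMM the *aramis* RNAi median was -0.17. With same-numbered polysome and input libraries as a block, the medians were -0.39 in *aramis* RNAi, -1.41 in *bam* RNAi and -0.91 in UAS-*tkv*. With members at 0 counts set to their bounds, and those at or under the floor in both fractions left out, the medians were -0.44, -1.02 and -0.61.

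**Figure D4:**
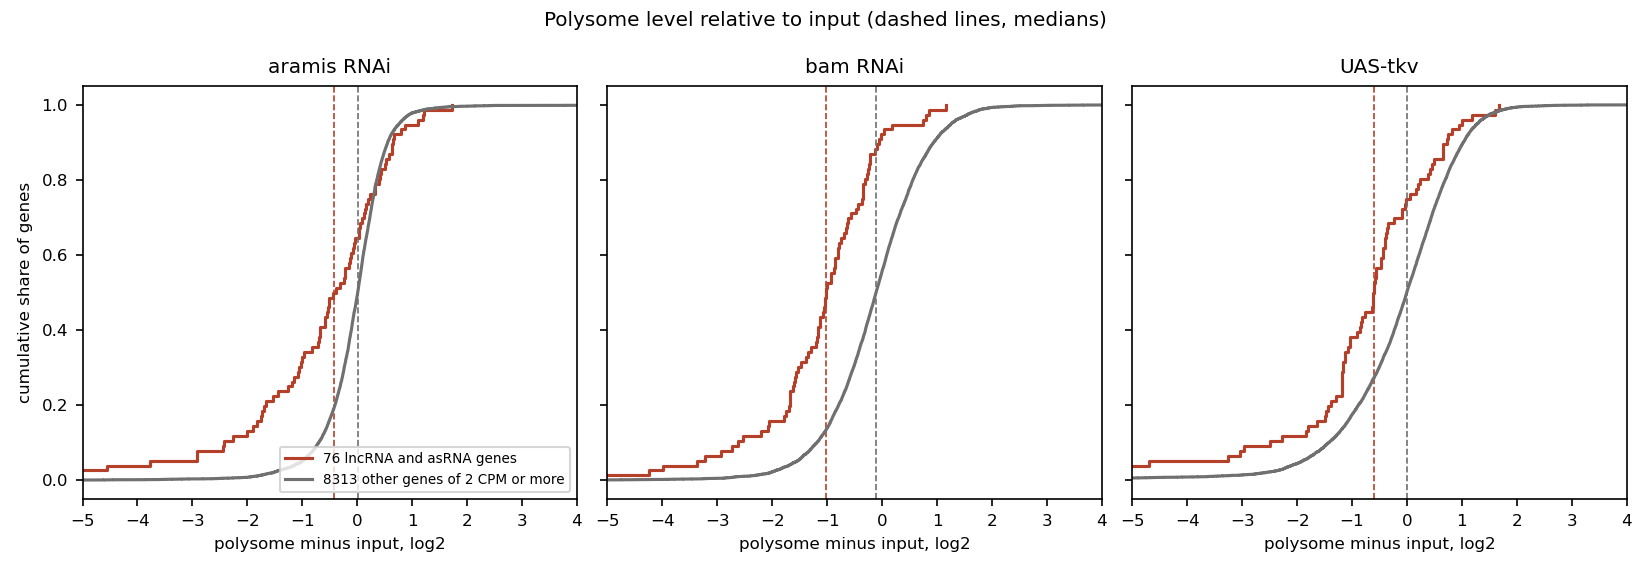
Cumulative share of genes by polysome minus input difference (log2, edgeR) in each genotype, for the 76 lncRNA and asRNA genes and for 8313 other genes with a mean input of 2 CPM or more, with dashed lines at the medians. The curve of the 76 lies to the left in each genotype, with medians of -0.41 in *aramis* RNAi, -1.02 in *bam* RNAi and -0.61 in UAS-*tkv*; values below -5 are outside the axis.

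The per-library values showed the same. Both polysome libraries were below both input libraries for 34 of the 76 in *aramis* RNAi (44.7%, against 25.5% of the other genes), 39 in *bam* RNAi (51.3%, against 27.7%) and 35 in UAS-*tkv* (46.1%, against 31.8%). Both were above for 7 (9.21%, against 26.2%), 1 (1.32%, against 21.0%) and 8 (10.5%, against 29.2%). In all 3 genotypes, 22 of the 76 (28.9%) were below, against 11.9% of the other genes, and 0 were above. The 22 included 9 of the 10 most abundant RNAs, all but *CR44289*.

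**Figure D5:**
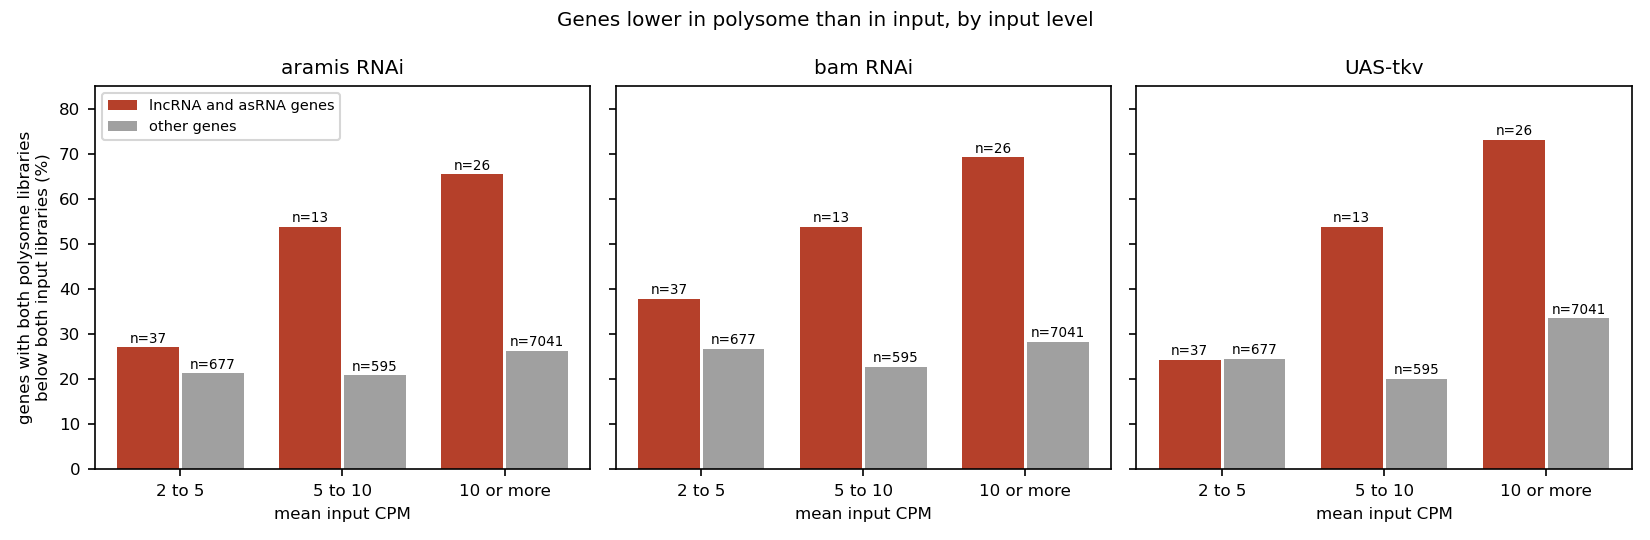
Percent of genes with both polysome libraries below both input libraries, by mean input CPM (x axis) and genotype, for lncRNA and asRNA genes and other genes, with n above each bar. At 10 CPM or more the RNAs are at 65.4%, 69.2% and 73.1% in *aramis* RNAi, *bam* RNAi and UAS-*tkv*, against 26.3%, 28.2% and 33.5% of other genes.

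The difference from other genes was wider at higher input level. Among the 37 RNAs of 2 to 5 CPM, the share below was 27.0% in *aramis* RNAi, 37.8% in *bam* RNAi and 24.3% in UAS-*tkv*, beside 21.3%, 26.7% and 24.5% of 677 other genes at that level. Among the 13 RNAs of 5 to 10 CPM it was 53.8% in each genotype, beside 20.8%, 22.7% and 20.0% of 595 other genes. Among the 26 RNAs of 10 CPM or more it was 65.4%, 69.2% and 73.1%, beside 26.3%, 28.2% and 33.5% of 7041 other genes. The median difference of these 26 was -0.56 in *aramis* RNAi, -1.16 in *bam* RNAi and -0.95 in UAS-*tkv*. Averaged over genotypes, the polysome minus input difference of the 76 had a Spearman's rho of -0.32 with exon length and -0.25 with mean input CPM. By genotype, the Spearman correlation with exon length was -0.12 in *aramis* RNAi, -0.22 in *bam* RNAi and -0.32 in UAS-*tkv*. Over the 26 RNAs of 10 CPM or more the averaged difference had a rho of -0.08 with exon length and -0.35 with mean input CPM. Over 8120 other genes, rho with exon length was -0.66. These are descriptions across genes of the same 12 libraries, and input CPM is part of the difference itself.

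The RNAs with the lowest polysome level relative to input, averaged over genotypes, were *CR44993* (-6.23), *marge* (-5.84), *CR40469* (-4.23), *CR43961* (-2.89) and *CR45102* (-2.48). The values of *CR44993*, *marge* and *CR43961* rest on groups at 0 counts and depend on the prior count of the fit. *CR40469* had the most counts of these. Its polysome minus input difference was -3.76 ± 0.66 (SE) in *aramis* RNAi, -4.25 ± 0.68 in *bam* RNAi and -4.70 ± 0.76 in UAS-*tkv*, so it stayed low in polysomes in each genotype while its level differed between them. *marge* (3L, 14976626 to 14977631) was at 0 and 0.66 CPM in *aramis* RNAi polysomes against 5.43 and 5.79 in input, at 0 and 0 against 0.761 and 3.04 in *bam* RNAi, and at 0 and 0 against 0 and 1.45 in UAS-*tkv*. It had 2 polysome counts over the 6 libraries and 138 input counts. In *bam* RNAi it was at least 13.6-fold lower in polysomes. In UAS-*tkv* it was at least 3.33-fold lower, with 9 input counts, all from replicate 2. By library totals its input was 4.42 and 4.91 CPM in *aramis* RNAi, 0.862 and 2.97 in *bam* RNAi and 0 and 1.67 in UAS-*tkv*. Like *iab8*, it reached the cutoff of 2 CPM only with the *aramis* RNAi libraries.

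*CR44993* (2L, 21628462 to 21628976), inside *Df31*, had 5 polysome counts and 163 input counts in all. Its polysome levels were 0 and 0 CPM in *aramis* RNAi, 0 and 0.267 in *bam* RNAi and 0 and 0 in UAS-*tkv*, against inputs of 2.12 and 0.351, 2.86 and 3.04, and 4.78 and 2.26 CPM. In UAS-*tkv* this was at least 22.2-fold lower in polysomes. *CR45102* (X, 3701857 to 3703285) was at 8.47 and 7.59 CPM in *aramis* RNAi polysomes against 16.6 and 21.9 in input, 2.52 and 3.63 against 31.2 and 17.0 in *bam* RNAi, and 0 and 3.50 against 14.2 and 15.7 in UAS-*tkv*. *CR31781* and *CR43264* were next, at -2.45 and -2.43.

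The highest averages were those of *CR44289* (1.05), *CR45474* (0.73), *CR32582* (0.62), *CR43958* (0.56) and *CR43900* (0.52). All but *CR44289* had a mean input under 4 CPM, and the libraries of a group differed widely. *CR45474* was at 0.622 and 0.330 CPM in *aramis* RNAi polysomes against 0.472 and 0.175 in input, at 13.3 and 2.35 against 2.16 and 4.72 in *bam* RNAi and at 6.13 and 1.36 against 2.29 and 3.39 in UAS-*tkv*. *CR43958* was at 2.18 and 1.98 CPM in *aramis* RNAi polysomes against 2.71 and 1.75 in input, at 4.13 and 1.28 against 1.97 and 2.72 in *bam* RNAi and at 0 and 10.3 against 0.935 and 2.42 in UAS-*tkv*. Polysome and input libraries of these 2 RNAs overlapped in every genotype. *CR32582* was at 6.06 and 2.31 CPM in *aramis* RNAi polysomes against 3.31 and 2.63 in input and at 5.05 and 2.45 against 2.98 and 6.40 in *bam* RNAi, both with overlap, and at 4.60 and 7.58 against 1.56 and 2.26 in UAS-*tkv*, without overlap. *CR43900*, which shares 199 exon bases with *Cam* on its strand, was at 1.48 and 1.32 CPM in *aramis* RNAi polysomes against 0.472 and 0.351 in input, without overlap, and overlapped at 2.29 and 4.85 against 2.73 and 4.96 in *bam* RNAi and at 0.726 and 2.53 against 1.14 and 2.26 in UAS-*tkv*.

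The ratio of polysome to input level, or translational efficiency (TE), was then compared between genotypes as an interaction of fraction and genotype. By edgeR 0 of the 76 were called when *aramis* RNAi was set against UAS-*tkv* (background 0.0103% of all genes tested), against *bam* RNAi (0.0%) or when *bam* RNAi was set against UAS-*tkv* (0.0103%), and DESeq2 called 0 in each. At an unadjusted p under 0.05, the first comparison had 1 RNA higher and 3 lower (5.49% and 2.02% of all genes tested), the second 0 and 0 (1.11% and 2.04%) and the third 1 and 1 (1.59% and 0.626%). Without *bam* RNAi polysome replicate 2, 8 RNAs were called higher in *aramis* RNAi than in *bam* RNAi. The median standard error of these differences was 1.52, 1.49 and 1.45 (log2) over the 76, so that only large differences could pass. The median TE difference of the 76 was 0.14, 0.48 and -0.39, beside 0.05, 0.17 and -0.01 over all genes tested. The 3 comparisons share libraries.

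The Oo-site paper, which lists no *aramis* RNAi data, used a looser threshold, over 2-fold at an unadjusted p under 0.05. It was set there on a DESeq2 likelihood ratio test and is applied here to the edgeR p-values. At that threshold, *aramis* RNAi against UAS-*tkv* gave 3 RNAs as lower (3.95%, against 1.79% of all genes tested) and 1 as higher (1.32%, against 5.28%). *CR43264* had a TE difference of -1.28 ± 0.43, with 31.7 and 23.8 CPM in *aramis* RNAi polysomes against 20.6 and 20.2 in UAS-*tkv* polysomes while input differed 3.31-fold. *CR43857* had one of -1.22 ± 0.41, and its fall was 14.8-fold in polysomes and 6.38-fold in input. *CR43961* (-5.96 ± 2.56) and *iab8* (6.51 ± 2.51) rested on groups with 0 counts, and *iab8* passed the input cutoff only with *aramis* RNAi. All 4 had an adjusted p of 0.652. In *bam* RNAi against UAS-*tkv*, 1 RNA was lower at that threshold (1.32%, against 0.554%) and 1 higher (1.32%, against 1.5%). These were *CR43264* (-1.09 ± 0.43) and *iab8* (5.54 ± 2.48), each with an adjusted p of 1. In *aramis* RNAi against *bam* RNAi the lowest p belonged to *CR45472* (-2.94 ± 1.44), *CR44029* (2.64 ± 1.30) and *CR43961* (-4.93 ± 2.54), all with an adjusted p of 0.928. *CR44029*, antisense to *unc-13*, was at 7.15 and 4.62 CPM in *aramis* RNAi polysomes and 10.3 and 7.72 in input, against 1.38 and 3.63 in *bam* RNAi polysomes and 25.4 and 23.8 in input, so that the fractions of *bam* RNAi stood further apart. *CR45472* (2R, 5663909 to 5664615) was at 0.466 and 0.33 CPM in *aramis* RNAi polysomes and 2.24 and 4.21 in input, against 3.44 and 3.41 in *bam* RNAi polysomes and 2.73 and 4.002 in input.

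Genes of proteins that act with or on noncoding RNAs were measured in the same fit, from lists chosen with earlier results known, and 1 of the lists holds partners of a member of the 76, *Hsromega*. In *aramis* RNAi input against UAS-*tkv*, 0 of 8 omega speckle and hnRNP protein genes, the partners of *Hsromega*, were higher and 1, the chromatin remodeller *Iswi*, was lower (median log2 -0.20). Of the 5 dosage compensation genes, whose RNA partners are the roX RNAs, 0 were higher and 1, the acetyltransferase *mof*, was lower (median -0.77). All 5 of the measured snoRNP core genes were lower (*Fib*, *NHP2*, *nop5*, *Nop56* and *Nop60B*, median -1.49). So were 2 of 8 nuclear exosome genes (*Dis3* and *Mtr4*, median -0.93). Of 8 piRNA pathway genes, a list not limited to follicle cells, 7 were lower (*armi*, *fs(1)Yb*, *Gasz*, *piwi*, *shu*, *vret* and *zuc*, median -1.48). Of the 6 nonsense-mediated decay genes 0 were called (median -0.47). These counts stand beside 8.73% of all genes tested called lower in this comparison, 6 of 6 germline markers lower (median -2.94), and 1 of 4 follicle cell markers higher (*Fas3*) and 1 lower (*tj*, median -0.21), and the part of cell composition in them was not tested. Among the 76 RNAs, *CR42491* contains a snoRNA gene, snoRNA:Psi18S-531. It was at 3.26 and 11.6 CPM in *aramis* RNAi polysomes against 29.5 and 19.7 in input, and shares 377 exon bases with *RpL22*, so its counts are uncertain.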

How the data were processed

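The deposited files hold integer read counts per gene for 12 libraries. Per the labels and the submitters' processing notes, the authors aligned reads to dm6 with HISAT2 2.1.0 and counted them with featureCounts 1.4.6. The annotation release and strand setting were not given in the sources used here. Symbols, coordinates and exon lengths came from Ensembl release 115 (BDGP6, the dm6 sequence), matched by identifier for 16647 of 17023. The other 376 held up to 6.46% of a library's counts and stayed in the fit without names. RNA sequences were not used here.

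Counts were fitted in R 4.3.3 with edgeR 4.0.16 (filterByExpr, TMM, quasi-likelihood, 6 group means, 12 libraries, 6 residual degrees of freedom). The spread of each gene was estimated over all 6 groups, so polysome libraries enter the p-values of input comparisons, and input libraries those of polysome comparisons. All 76 RNAs passed the filter, 9745 genes were tested and p-values were adjusted over all of them. An RNA can pass this filter through its highest group alone, and the mean input cutoff through its highest genotype. DESeq2 1.42.0 was an alternative. The fit was tested on simulated data. Log2 differences are given ± SE with 2 libraries per group. The SE was derived as the absolute log2 difference divided by the square root of the quasi-likelihood F statistic. TMM factors ran from 0.79 to 1.25. A group at 0 counts was bounded by 3 counts over the group. The labels name no separate crosses, so p-values measure the spread between these samples, which may be technical.

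The RNAs and lists were chosen with earlier results of these data known. Named RNAs were the 10 of highest input CPM, those with a given name, and the neighbours of the cutoff. Per comparison, up to 5 called in each direction with non-overlapping groups were named (otherwise those past the Oo-site paper's threshold or the 3 of lowest p). The 5 highest and 5 lowest in polysome minus input difference were named as well. RNAs with a hairpin gene, *CR42491*, and the overlap partners were named after their values were seen.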

Additional observations from a re-analysis of the deposited data

How the results depend on the processing

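Counts of called RNAs moved with the choice of libraries and tool. Of the values of single RNAs under other scalings, filters, tools and the replicate block, 224 kept direction and side of the threshold, 28 lost their call and 6 gained one. These values leave out the fits with 1 library left out. They include named RNAs that were not called, which kept their side by staying uncalled, so they are not comparable with the counts of calls. In input, a fit of the input libraries alone gave 23 calls for *aramis* RNAi against UAS-*tkv* and 19 against *bam* RNAi. DESeq2 gave 13 and 14. Without a low-count filter, input calls were 7 for *aramis* RNAi against *bam* RNAi and 2 for *bam* RNAi against UAS-*tkv*, where DESeq2 gave 1. In polysomes, *aramis* RNAi against UAS-*tkv* gave 5 with the polysome libraries alone and 22 over the larger set of RNAs of 1 CPM or more. *aramis* RNAi against *bam* RNAi gave 2 with library totals, 1 with the polysome libraries alone and 13 with DESeq2. *bam* RNAi against UAS-*tkv* gave 2 without a filter and 3 with DESeq2. The cause was not tested.

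The median polysome minus input difference was -0.17 in *aramis* RNAi and -0.73 in UAS-*tkv* with library totals. In UAS-*tkv* it was -0.86 for RNAs of 5 CPM or more, -0.96 as the log2 TPM ratio of the Oo-site paper and -1.48 with 0.1 added to that ratio's terms.

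With any 1 of the 12 libraries left out, input calls ran from 3 to 14 (*aramis* RNAi against UAS-*tkv*), 0 to 7 (against *bam* RNAi) and 0 to 0 (*bam* RNAi against UAS-*tkv*). Polysome calls ran from 6 to 24, 1 to 22 and 0 to 7, and TE calls from 0 to 0, 0 to 8 and 0 to 0, in the same order. The highest counts came without a *bam* RNAi polysome library: 14 input calls against UAS-*tkv* without either, 7 input calls against *bam* RNAi without replicate 1, and 24, 22, 7 and 8 without replicate 2. Medians ran from -0.72 to -0.21 in *aramis* RNAi, -2.78 to -0.61 in *bam* RNAi and -0.74 to -0.61 in UAS-*tkv*. Without *bam* RNAi polysome replicate 2, the TE differences of *CR43961* (*aramis* RNAi against *bam* RNAi, range -5.90 to 2.40 over libraries left out) and *iab8* (*bam* RNAi against UAS-*tkv*, -1.01 to 6.48) turned sign, to 2.40 and -1.01, with groups at 0 counts.

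Replicate numbers were shared between groups, but the deviations of same-numbered polysome and input libraries correlated at 0.39 in *aramis* RNAi, -0.00 in *bam* RNAi and 0.54 in UAS-*tkv*. The labels say that input was set aside from lysate but not that a shared number marks a shared lysate, so values with and without the block are given. With the replicate block, 8, 3 and 0 RNAs were called in input, 12, 5 and 0 in polysomes and 0, 0 and 0 in TE, and the median in UAS-*tkv* was -0.91. The polysome calls lost under the block were *CR43963* (adjusted p = 0.0505) and *CR44429* (0.0552) against UAS-*tkv* and *CR43963* (0.0551) and *CR44330* (0.0510) against *bam* RNAi, by edgeR. Of the 76 RNAs, 37 were under 5 CPM.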
